A study of Mus musculus with 123 samples.

Results

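The comparison described here is that of Oct4-KO with Oct4 Ctrl morulae, the earliest stage at which the study sequenced embryos without Oct4. It comprises 8 KO and 8 Ctrl embryos, 16 embryos of a series that holds 68 of an Oct4 line and 55 of a Sox2 line. They were chosen by genotype and stage as the sample labels give them, and compared across all 14053 genes detected. The study set out to learn what the transcription factors Oct4 and Sox2 do while the inner cell mass (ICM) of the mouse embryo forms, and it sequenced whole morulae and isolated ICMs, 1 embryo per library. Early and late ICMs and the morulae of the Sox2 line are used below only to place the changes found in Oct4-KO morulae.

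All of these embryos were of the B6C3F1 background and came from superovulated females. Oct4-KO embryos lacked the maternal and the zygotic gene: the mothers carried floxed Pou5f1, the gene that encodes Oct4, with Cre expressed in growing oocytes from the Zp3 promoter, and the paternal allele was disrupted by a targeted insertion that carries the fluorescent reporter mKO2. Ctrl embryos had the same mothers and therefore also lacked maternal Oct4, but inherited an intact paternal allele and no reporter. Another group, MWT, holds 7 Oct4-line morulae from mothers with the gene intact. Morulae were compacted embryos collected at E2.75, sequenced whole and not cultured with an inhibitor. Early and late ICMs, in contrast, came from embryos grown in culture with the MEK inhibitor PD0325901, and their outer cells had been removed by immunosurgery, so a difference between morulae and ICMs mixes stage with culture and isolation. The Ctrl and KO early ICMs are given as E3.75 and the late ICMs as E4.5. The Sox2-line embryos were made by the same scheme for the gene Sox2.

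Oct4 is a POU-domain protein that binds an octamer DNA motif, and in pluripotent cells it acts with Sox2 on enhancers in which an octamer lies beside a Sox motif. All blastomeres of the compacted morula contain Oct4, whereas Sox2 appears later, in the inside cells. Around compaction the outer cells become polarised and take the path to trophectoderm, the inner cells form the ICM, and the ICM later separates into the epiblast, which carries naive pluripotency, and the primitive endoderm.

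Depth was even across the comparison. Total counts of unique molecular identifiers (UMIs, random tags that let PCR copies of a molecule be counted once) ran from 892693 to 1059896 in Ctrl and from 903051 to 1159617 in KO morulae, so a level of 1 CPM (UMIs scaled to an equal total of 1e+06 per embryo, after adjustment of the total by TMM) stands for about 1 UMI. Totals, the number of detected genes (13238 to 13912 in Ctrl, 12914 to 14169 in KO) and the mitochondrial share (4.47% to 6.33% and 3.94% to 5.72%) gave p = 0.562, 0.471 and 0.474 in exact permutation tests of 8 against 8 (two-sided). The morulae held the transcripts of compacted embryos: the cell adhesion gene Cdh1, the keratin Krt8, Gata6 and Nanog were detected in all 16. Of 12 marker genes of cumulus and granulosa cells only 1 could be tested, and the list summed to at most 1.04 CPM in Ctrl and 0.889 CPM in KO. The first principal component of the 16 morulae (26.2% of the variance) mixed the genotypes, and the second (18.3%) separated them, with Ctrl between 5.52 and 13.5 and KO between -13.0 and -5.43. Embryos with at least 10 UMIs of Y-linked genes numbered 2 of 8 Ctrl and 4 of 8 KO, and none of the 4 Y-linked genes tested was called.

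Pou5f1 itself was at 13.3 to 26.6 CPM (median 23.0) in Ctrl morulae and at 0 in 7 of 8 KO morulae, the eighth, KO replicate 5, holding 3.44 CPM. The 3 UMIs of KO replicate 5 were all that the KO group had, against 163 in the Ctrl group, a ratio of 1.87% with an exact 95% Poisson interval of 0.381% to 5.55% that covers counting error only. MWT morulae, with the maternal gene intact, had 7.98 to 33.6 CPM (median 24.4), a log2 difference from Ctrl of 0.05 ± 0.26 (SE). Morulae of the Sox2 line were higher, with medians of 80.9 CPM in Ctrl and 88.7 CPM in KO embryos, and Oct4 Ctrl early ICMs reached a median of 78.6 CPM. Levels between lines were not tested.

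A gene was called at a Benjamini-Hochberg adjusted p under 0.05 in edgeR's quasi-likelihood test and a change of at least 2-fold. By this rule 113 genes (0.804% of those tested) were called in Oct4-KO morulae, 88 lower (0.626%) and 25 higher (0.178%), as the plot of fold change against expression shows. The median log2 fold change was -1.84 among the lower and 1.59 among the higher genes, while the median over all genes was 0.01. Most of the lower genes encode proteins (77 of 88, with 4 long noncoding RNAs and 7 pseudogenes), and 21 of the 25 higher genes do. Many were rare transcripts: 30 of the lower and 9 of the higher genes had a mean under 10 CPM in the group where they were higher, and 38 and 11 had at least 20 CPM. Whole embryos were sequenced, so fewer cells of a type and less RNA per cell cannot be told apart. The separation of individual embryos was often incomplete. In 80 of the 88 lower genes the whole KO group lay under the Ctrl median, but only 16 of them had KO and Ctrl groups that did not overlap, and over all genes 35 (0.249%) had every KO embryo below every Ctrl embryo. Of the higher genes 18 had all KO embryos above the Ctrl median and 5 did not overlap, against 35 (0.249%) of all genes with every KO embryo above. Under 2-fold, a further 39 genes were lower and 54 higher at an adjusted p under 0.05.

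**Figure D1:**
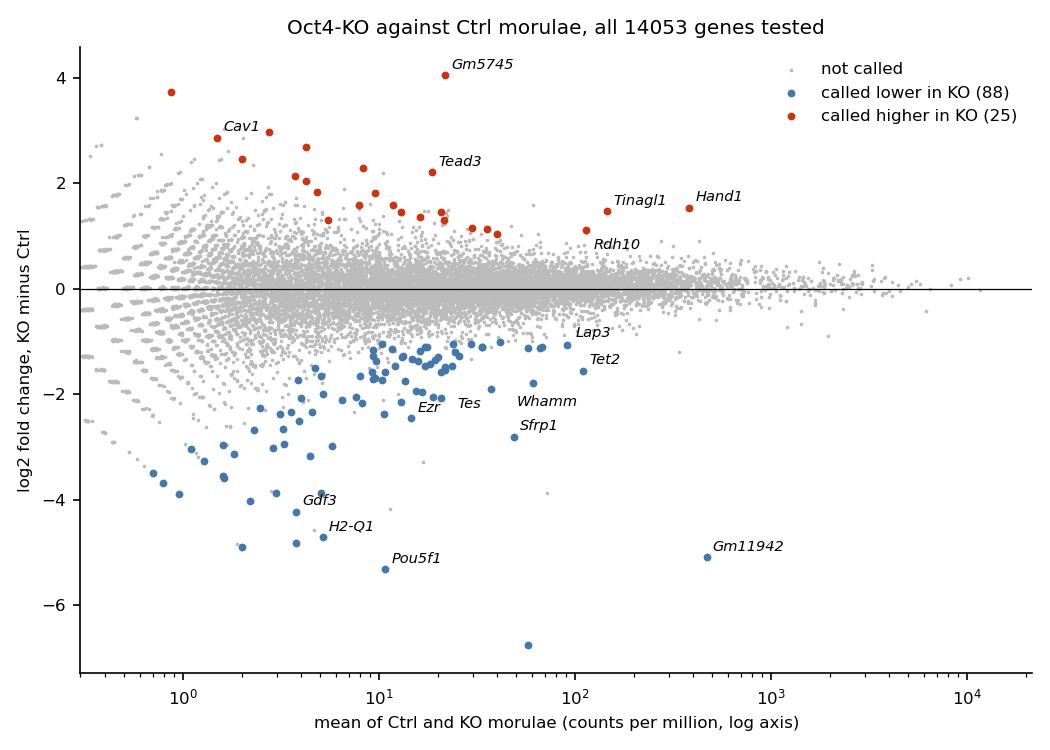
Log2 fold change of Oct4-KO minus Ctrl morulae against the mean of both groups in CPM (log axis) for the 14053 genes tested, 1 point per gene, with the 88 called lower in blue and the 25 called higher in red. Most genes lie around 0, lower genes outnumber higher ones, and Hand1 and Tinagl1 are the most abundant of the higher genes.

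The lower genes included some that encode secreted signals and receptors. Sfrp1, a secreted antagonist of Wnt ligands, ran from 40.0 to 166 CPM (median 66.0) in Ctrl and from 1.19 to 43.1 CPM (median 6.83) in KO morulae. KO replicate 12 was the high embryo, and it alone reached into the Ctrl range, the other KO embryos ending at 17.1 CPM. The log2 fold change of Sfrp1 was -2.80 ± 0.33 (adjusted p = 4.72e-10). Gdf3, a TGF-beta family ligand of pluripotent cells, had 0 to 12.3 CPM in Ctrl and 0 to 1.15 CPM in KO morulae. The groups met at 0 through Ctrl replicate 1, and the remaining Ctrl embryos, at 4.12 CPM or more, all lay above the KO embryos. In UMIs the contrast was 57 against 2, a ratio of 3.56% (0.420% to 13.4%), and the fitted log2 fold change was -4.22 ± 0.73 (adjusted p = 9.60e-05).

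Fzd5, a Wnt receptor, had a Ctrl median of 12.4 CPM (4.25 to 24.2) and a KO median of 4.05 CPM (2.05 to 11.5), with every KO embryo below the Ctrl median but overlapping ranges. Its log2 fold change of -1.36 ± 0.34 (adjusted p = 0.0187) no longer passed when Ctrl replicate 15 or 19 or KO replicate 1 or 2 was left out (-1.27 to -1.21, adjusted p 0.0512 to 0.0696). Bambi, a pseudoreceptor that dampens TGF-beta and BMP signalling, fell from a median of 25.2 CPM (14.5 to 33.5) to 9.80 CPM (2.81 to 15.2), and 1 pair of extremes overlapped, the highest KO and the lowest Ctrl embryo. It changed by -1.46 ± 0.39 on the log2 scale (adjusted p = 0.0271), and the call was lost without Ctrl replicate 4, 18 or 19 or KO replicate 1, 2 or 12 (-1.42 to -1.31, adjusted p 0.0508 to 0.0730). Of 29 tested Wnt pathway genes Sfrp1 and Fzd5 were the 2 called, none was higher, and the median was 0.01, the same as that of all genes, of which 0.626% were called lower and 0.178% higher. Epha4, an ephrin receptor named after its values were seen, had 79 UMIs in Ctrl and 9 in KO embryos, a ratio of 11.5% (5.09% to 23.0%), with 38.6 CPM in the highest Ctrl embryo. Its call was lost without that embryo, Ctrl replicate 11 (adjusted p = 0.0699).

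Tet2, Sap30, Hhex and Foxn2, lower in KO morulae as well, encode proteins that act on chromatin or DNA. Tet2, which oxidises 5-methylcytosine in DNA, was at 96.9 to 285 CPM (median 150) in Ctrl and at 25.3 to 73.4 CPM (median 57.8) in KO morulae. All KO embryos lay below all Ctrl embryos. With a log2 fold change of -1.55 ± 0.17 (adjusted p = 1.37e-10) it had the highest level among the lower genes taken by the rule for naming genes. Sap30, a subunit of the Sin3-HDAC corepressor complex, had a Ctrl median of 22 CPM (10.2 to 40.8) and a KO median of 8.10 CPM (5.33 to 16.1), with KO replicate 8 above the rest of its group. The change of Sap30 was -1.37 ± 0.30 (adjusted p = 0.00319). Hhex, a homeobox factor, went from a median of 34.4 CPM (20.5 to 59.8) to 13.4 CPM (5.94 to 21.5), and the groups overlapped only where the highest KO embryo passed the lowest Ctrl embryo. Its log2 fold change was -1.46 ± 0.35 (adjusted p = 0.00952). Foxn2, a forkhead factor chosen after its values were seen, did not overlap between groups (70.2 to 146 CPM in Ctrl, 32.1 to 57.8 CPM in KO) and changed by -1.11 ± 0.17 (adjusted p = 8.98e-06), falling just under 2-fold (-0.98) without Ctrl replicate 4. A list of 28 other genes of DNA methylation and chromatin held none that was called, which at a called share of 0.804% over all genes is no departure from the background, and its median was -0.06.

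**Figure D2:**
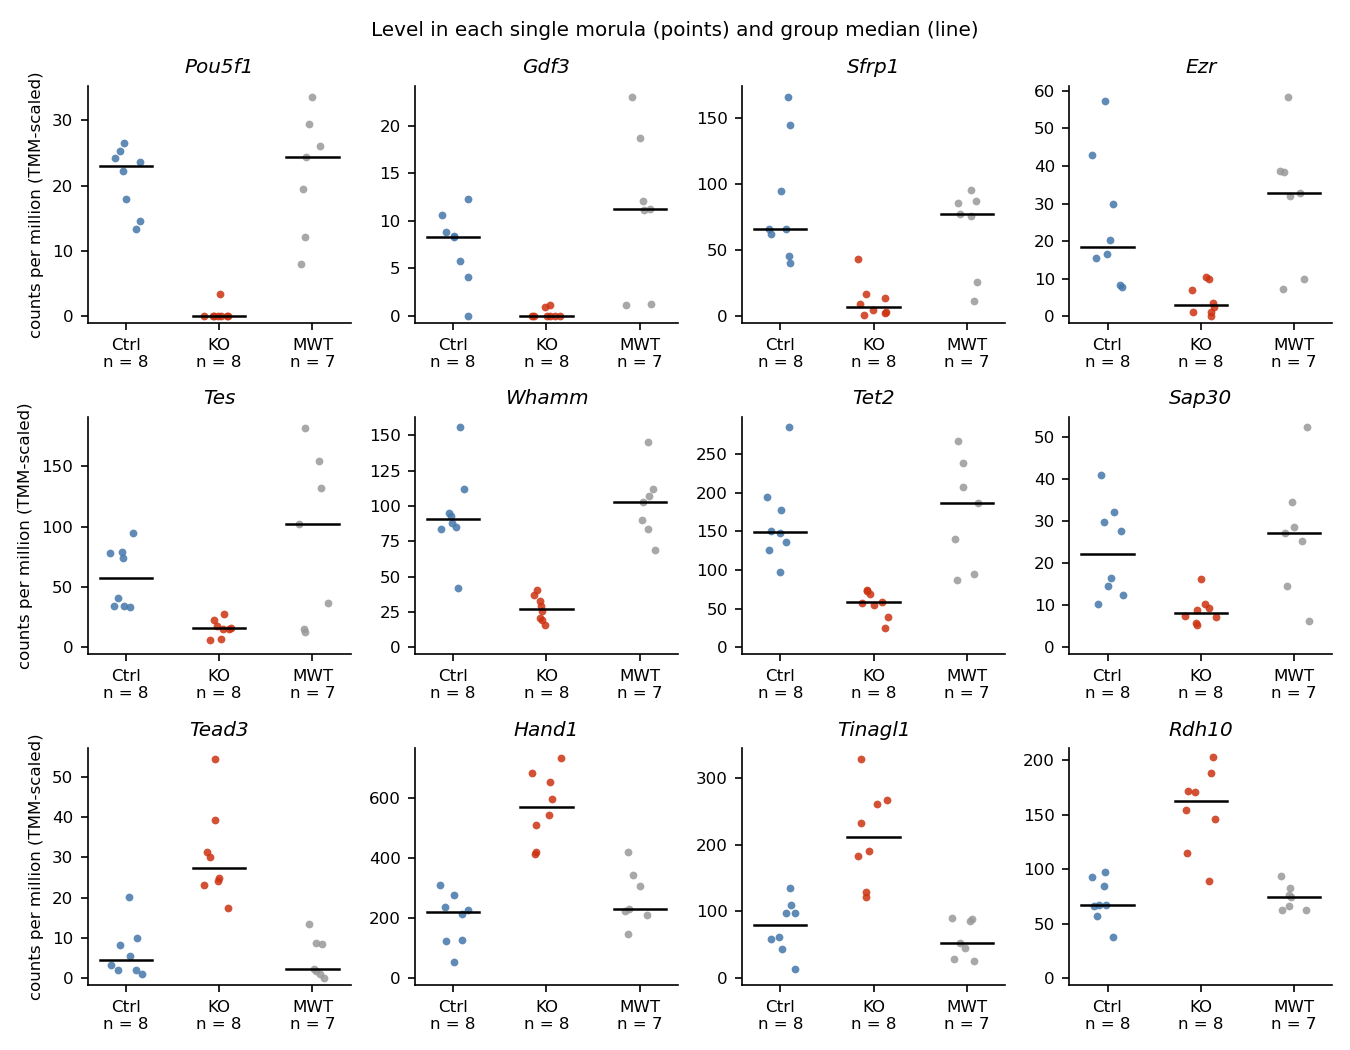
CPM in each of the 8 Ctrl, 8 KO and 7 MWT morulae for genes described in the text, with 1 point per embryo and a bar at the group median. The KO points of Tet2, Whamm and Tes lie below every Ctrl point, those of Hand1 above, and 2 MWT embryos lie low for Sfrp1, Ezr and Tes.

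Ezr, Tes, Whamm and Cdc42ep3, also lower, encode proteins of the cell cortex, focal adhesions and actin regulation. Ezr encodes ezrin, which links cortical actin to the plasma membrane at the apical side of outer blastomeres. It ran from 7.82 to 57.3 CPM (median 18.3) in Ctrl and from 0 to 10.3 CPM (median 2.93) in KO morulae, and the 2 lowest Ctrl embryos fell within the KO range. The log2 fold change of Ezr was -2.45 ± 0.46 (adjusted p = 5.07e-04). Tes, the gene of the LIM-domain focal adhesion protein testin, had 33.0 to 94.9 CPM (median 57.2) in Ctrl and 5.62 to 27.3 CPM (median 15.7) in KO morulae. Every KO embryo was lower than every Ctrl embryo, and the change was -1.90 ± 0.22 (adjusted p = 4.72e-10). Whamm, a nucleation-promoting factor for branched actin on internal membranes, showed the same complete separation, with 41.7 to 156 CPM (median 90.5) in Ctrl and 15.4 to 40.3 CPM (median 27.3) in KO morulae. It changed by -1.78 ± 0.20 (adjusted p = 1.78e-10). For Cdc42ep3, an effector of the GTPase Cdc42, the ranges were 10.4 to 46.8 CPM (median 30.7) and 1.09 to 22.9 CPM (median 8.97). The KO embryos lay below the Ctrl median with overlapping ranges, and the change was -1.58 ± 0.34 (adjusted p = 0.00319). Among 37 tested genes of epithelial cortex, polarity and junctions, however, Ezr was the only one called, against 0.804% of all genes, the median was -0.14, and the ezrin relatives Rdx (-0.26, adjusted p = 0.645) and Msn (1.04, adjusted p = 0.459) did not pass.

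Further lower genes had varied known roles. Acaa2, a mitochondrial thiolase of fatty acid oxidation, went from a Ctrl median of 28.7 CPM (17 to 60.8) to a KO median of 10.9 CPM (5.12 to 18.3). The highest KO embryo passed the 2 lowest Ctrl embryos, and the change was -1.53 ± 0.30 (adjusted p = 7.39e-04). Plpp1, a phospholipid phosphatase of the cell surface, had 5.21 to 52.3 CPM (median 21.7) in Ctrl and 0 to 16.0 CPM (median 6.20) in KO morulae, with overlapping ranges and a change of -1.95 ± 0.38 (adjusted p = 7.39e-04). Ddhd2, a lipase, had 13.8 to 41.2 CPM (median 26.5) in Ctrl and 2.05 to 17.8 CPM (median 9.79) in KO morulae. No KO embryo reached the Ctrl median, and the change was -1.42 ± 0.28 (adjusted p = 7.39e-04). Ficd, an enzyme that AMPylates the endoplasmic reticulum chaperone BiP, ran from 12.3 to 70.9 CPM (median 19.7) in Ctrl and from 2.29 to 15.9 CPM (median 4.74) in KO morulae, a change of -2.05 ± 0.33 (adjusted p = 2.48e-05). Only the upper KO embryos reached into the lower part of the Ctrl range.

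Fbxo3, a substrate receptor of an SCF ubiquitin ligase, had 8.34 to 38.6 CPM (median 18.5) in Ctrl and 2.01 to 10.3 CPM (median 5.49) in KO morulae, with a narrow overlap and a change of -1.75 ± 0.33 (adjusted p = 5.32e-04). Pcmtd1 did not overlap between the groups, at 17.3 to 52.5 CPM (median 23.1) against 4.02 to 14.3 CPM (median 12.5), and changed by -1.35 ± 0.28 (adjusted p = 0.00149). Ly96, the co-receptor of Toll-like receptor 4, went from a median of 24.1 CPM (5.58 to 65.9) to 7.00 CPM (2.38 to 15.2), with overlapping ranges and a change of -2.07 ± 0.43 (adjusted p = 0.00196). Csta1, a cysteine protease inhibitor of the stefin family, whose members share sequence and can share reads, had 3.13 to 43.7 CPM (median 23.9) in Ctrl and 1.87 to 8.32 CPM (median 4.81) in KO morulae. It was lower by -2.15 ± 0.55 on the log2 scale (adjusted p = 0.0207), and by -1.91 (adjusted p = 0.0779) without Ctrl replicate 19. Sycp1, a synaptonemal complex gene known from meiosis, and Laptm4b, a lysosomal membrane protein, were lower in all KO embryos than the Ctrl medians of 20 and 24.9 CPM, with KO medians of 6.40 and 12.4 CPM. Sycp1 changed by -1.94 ± 0.53 (adjusted p = 0.0344) and was not called without any of Ctrl replicates 1, 11 or 15 or KO replicates 1, 5, 6 or 7 (adjusted p 0.0502 to 0.108). Against MWT morulae Sycp1 was not called either (-0.94 ± 0.58, adjusted p = 0.418). Laptm4b changed by -1.49 ± 0.38 (adjusted p = 0.0183) and was not called without Ctrl replicate 15, 18 or 19 (adjusted p 0.0544 to 0.0776). Its change against MWT morulae was -0.68 ± 0.42 (adjusted p = 0.426).

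Some of the largest contrasts were in transcripts with few UMIs, named here after their values were seen. The noncoding transcript 4930566F21Rik had 31 UMIs in Ctrl and 0 in KO morulae, for which the exact 95% interval of the ratio reaches up to 12.8%. Akr1c14, an aldo-keto reductase, had 44 UMIs against 2 (ratio 4.61%, 0.541% to 17.7%), and Eno2, an enolase, 33 against 1 (3.07%, 0.0755% to 18.3%). Trp53bp2, whose product ASPP2 binds p53, had 139 UMIs in Ctrl and 26 in KO morulae and changed by -2.36 ± 0.42 (adjusted p = 1.98e-04). Among abundant transcripts just past the 2-fold limit, Mtfr1, a regulator of mitochondrial fission, did not overlap (57.3 to 106 CPM in Ctrl, 29.2 to 56.0 CPM in KO) and changed by -1.13 ± 0.14 (adjusted p = 1.40e-09). Lap3, a leucine aminopeptidase, did not overlap either, with a change of -1.07 ± 0.20 (adjusted p = 2.64e-04), and was at -0.97 without Ctrl replicate 15.

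The genes that rose included Hand1, Tinagl1 and Tead3, which are known from trophoblast. Hand1, a basic helix-loop-helix factor needed for trophoblast giant cells, was at 54.0 to 309 CPM (median 221) in Ctrl and at 412 to 732 CPM (median 569) in KO morulae. Every KO embryo lay above every Ctrl embryo, and the log2 fold change was 1.54 ± 0.42 (adjusted p = 0.0357). The Ctrl group spread widely, and the call was lost without any of Ctrl replicates 1, 4, 15, 18 or 19 or KO replicates 1, 2, 5 or 8, although the change stayed between 1.4 and 1.57 (adjusted p 0.0515 to 0.0919). Tinagl1, a secreted matrix glycoprotein expressed in trophectoderm, had 13.5 to 135 CPM (median 80.0) in Ctrl and 121 to 329 CPM (median 212) in KO morulae. Ctrl replicate 16 alone reached into the KO range, and the change was 1.47 ± 0.33 (adjusted p = 0.00497). Tead3, a DNA-binding partner of the Hippo effector YAP, went from a median of 4.47 CPM (0.968 to 20.2) to 27.4 CPM (17.4 to 54.4). Ctrl replicate 16 was the highest Ctrl embryo and the only one within the KO range. Among the higher genes taken by the rule for naming genes Tead3 had the largest change, 2.21 ± 0.45 (adjusted p = 0.00113).

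Other higher genes had other known roles. Rdh10, a retinol dehydrogenase of retinoic acid synthesis, rose from a median of 67.0 CPM (38.0 to 97.0) to 163 CPM (89.0 to 203), with 1 KO embryo below the highest Ctrl embryos and a change of 1.12 ± 0.23 (adjusted p = 0.00148). Camk1, a calcium/calmodulin-dependent kinase, had 6.61 to 26.6 CPM (median 7.73) in Ctrl and 13.1 to 47.5 CPM (median 30.6) in KO morulae, and Ctrl replicate 16 was again far above its group. Its change was 1.45 ± 0.39 (adjusted p = 0.0291), lost without any of Ctrl replicates 4, 7, 11, 15, 18 or 19 or KO replicates 1, 2 or 7 (adjusted p 0.0513 to 0.0849). Snx22, a sorting nexin, went from 5.58 to 20.9 CPM (median 11.7) to 18.7 to 47.5 CPM (median 30.2), a change of 1.31 ± 0.29 (adjusted p = 0.00497) with a slight overlap. Tmem144 did not overlap between groups, with a Ctrl median of 16.8 CPM (14.3 to 27.1) and a KO median of 41.9 CPM (28.1 to 55.5). The change of 1.15 ± 0.31 (adjusted p = 0.0324) was lost without any of Ctrl replicates 1, 4, 11, 15 or 16 or KO replicates 5, 6 or 8 (adjusted p 0.0509 to 0.0739). Col4a1, a basement membrane collagen chain, had 14.6 to 44.6 CPM (median 23.3) in Ctrl and 23.1 to 78.4 CPM (median 56.6) in KO morulae. It changed by 1.05 ± 0.29 (adjusted p = 0.0438) and was lost without any of Ctrl replicates 1, 4, 7, 11, 15 or 16 or KO replicates 1, 2, 4, 5, 6 or 7 (adjusted p 0.0530 to 0.118).

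Most other lineage regulators did not pass the test. In the list of naive pluripotency genes 3 of 36 were called, Gdf3, Tet2 and Sap30, all lower, where 0.626% of all genes were called lower, and the list median was -0.23, with 21 of the 36 genes negative. The lists were written with earlier results of these data known, and each gene stood in a single list. Tet2 and Sap30 thus count here and not in the chromatin list, so neither count is independent of these data. The regulators Nanog (-0.39 ± 0.24, adjusted p = 0.554), Klf4 (-0.24 ± 0.24, 0.785), Zfp42 (0.02 ± 0.14, 0.982) and Sox2 (0.01 ± 0.34) had adjusted p over 0.5. Tfcp2l1, a transcription factor of the naive network, changed by less than 2-fold but did so in all embryos: it was at 221 to 322 CPM in Ctrl and 126 to 188 CPM in KO morulae, with no overlap (-0.70 ± 0.14, adjusted p = 9.40e-04). Dppa3, a maternal and germline factor, also did not overlap (2282 to 2931 CPM against 1716 to 2191 CPM), but its adjusted p was 0.274. Esrrb, an orphan nuclear receptor of the naive network, had 48.0 to 124 CPM in Ctrl and 27.3 to 77.7 CPM in KO morulae (-0.72 ± 0.23, adjusted p = 0.0910). Other uncalled members had positive values. Tdgf1, which encodes the Nodal co-receptor Cripto, was at 25.5 to 84.9 CPM in Ctrl and 42.7 to 133 CPM in KO morulae, all KO embryos being above the Ctrl median (0.89 ± 0.30, adjusted p = 0.132). So were those of Dppa2 (0.49 ± 0.17, adjusted p = 0.145). At the early ICM stage 18 of the same 36 genes were lower in Oct4-KO embryos, against 6.11% of all genes there, and the list median was -0.93.

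Among 25 tested trophectoderm genes Hand1, Tinagl1 and Tead3 were higher, where 0.178% of all genes were called higher, none was lower, and the median was 0.04. The summed level of this list was 753 to 2302 CPM in Ctrl and 1336 to 2680 CPM in KO morulae. Other trophectoderm regulators moved in opposite directions without passing the test. Cdx2, the homeobox factor of trophectoderm, had 7.30 to 27.6 CPM (median 14.4) in Ctrl and 3.7 to 9.79 CPM (median 6.41) in KO morulae, all KO embryos being below the Ctrl median (-1.32 ± 0.42, adjusted p = 0.0911). Eomes, a T-box factor, had 4.08 to 34.0 CPM (median 17.2) and 24.4 to 55.5 CPM (median 38.7), all KO embryos being above the Ctrl median (1.14 ± 0.35, adjusted p = 0.0769). Both depended on the fit. In the 16 morulae alone Cdx2 (-1.34, adjusted p = 0.0150) and Eomes (1.12, adjusted p = 0.0212) passed, and Eomes passed also without Ctrl replicate 16 (1.35, adjusted p = 0.0332). Of 30 alternative fits Cdx2 passed in 4, among them the DESeq2 Wald test (-1.35, adjusted p = 0.0408). Eomes passed in 6 of 30, among them that against MWT morulae (1.85, adjusted p = 0.00319). Gata3 (0.04 ± 0.34), a further regulator of trophectoderm, was spread over the same range in both groups, from 19.8 to 113 CPM in Ctrl and 29.0 to 114 CPM in KO morulae. In primitive endoderm 1 of 20 genes was called, Col4a1, and Gata6, at a median of 463 CPM in Ctrl and 487 CPM in KO, changed by 0.00 ± 0.24.

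**Figure D3:**
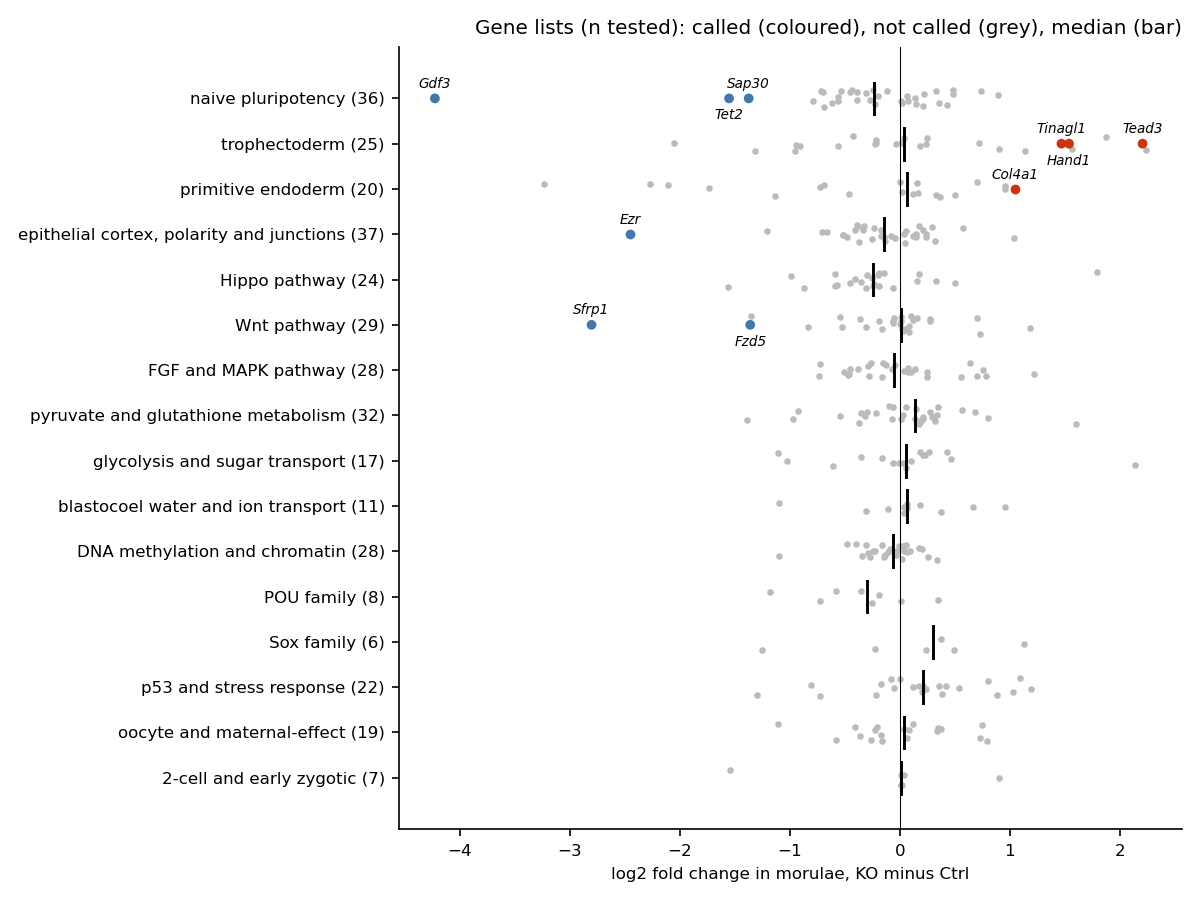
Log2 fold changes of Oct4-KO minus Ctrl morulae for the tested genes of 16 lists, 1 point per gene, coloured where called lower (blue) or higher (red), with a bar at each list median. The medians lie between -0.30 and 0.30, and the called genes sit in the naive pluripotency, trophectoderm, primitive endoderm, epithelial cortex and Wnt lists.

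Lists of pathways that act at compaction and cavitation were small against a called share of 0.804% over all genes, so a count of 0 in a list does not set it apart from the background. No gene was called in the Hippo list (24 tested, median -0.24, 19 of them negative, where 51.6% of all genes were positive), the FGF and MAPK list (28, -0.06), glycolysis and sugar transport (17, 0.06), pyruvate and glutathione metabolism (32, 0.14) or water and ion transport of the blastocoel (11, 0.07). These lists were not complete, and called genes with related roles lay outside them. Tead3, higher as described, stood in the trophectoderm list and not in the Hippo list. The enolase gene Eno2 and Pfkfb4, whose product sets the level of an activator of glycolysis (-1.28 ± 0.35, adjusted p = 0.0351), were called lower and stood in no list. The call of Pfkfb4 was lost without any of Ctrl replicates 1, 15, 16 or 18 or KO replicates 1, 2, 7 or 8 (adjusted p 0.0525 to 0.103). Below 2-fold, the Hippo kinase Lats1 (-0.87 ± 0.22, adjusted p = 0.0175) and its activator Wwc2 (-0.59 ± 0.14, adjusted p = 0.0141) were lower, the glutathione synthetase gene Gss was lower (-0.92, adjusted p = 0.0421), and Map2k1, which encodes the MAPK kinase MEK1, was higher (0.55 ± 0.12, adjusted p = 0.00196). Map2k1 did so with no overlap, at 102 to 132 CPM in Ctrl and 144 to 212 CPM in KO morulae. Likewise none was called among the other POU genes (8 tested, median -0.30), the other Sox genes (6, 0.30), p53 and stress response genes (22, 0.21), oocyte and maternal-effect genes (19, 0.04) or 2-cell stage genes (7, 0.01). Called lower but outside the p53 and stress list were Trp53bp2 and Eif2ak4, a kinase of the amino acid stress response (-1.65 ± 0.46, adjusted p = 0.0438), whose call was lost without any of Ctrl replicates 4, 11, 15, 18 or 19 or KO replicates 2, 4, 5, 7 or 12 (adjusted p 0.0513 to 0.117). Pfkfb4 and Eif2ak4 were chosen for description after their values were seen. Against MWT morulae Eif2ak4 was not called (-0.26 ± 0.53, adjusted p = 0.865). Pfkfb4 (-1.55 ± 0.35, adjusted p = 0.00294) and Trp53bp2 (-3.02 ± 0.46, adjusted p = 1.51e-06) were called lower there. The oocyte and maternal-effect list summed to 651 to 1023 CPM in Ctrl and 373 to 872 CPM in KO morulae, and the p53 list to 654 to 1218 CPM and 637 to 1191 CPM.

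Independent embryos of the Oct4 line, collected as ICMs after culture with the inhibitor, show which of these changes were also found there. At the early ICM stage, where 859 genes (6.11%) were lower and 671 (4.77%) higher in Oct4-KO embryos, 57 of the 88 genes lower in morulae (64.8%) were also lower, and none was higher. In late ICMs, with 1242 genes (8.84%) lower and 1304 (9.28%) higher, 47 of the 88 (53.4%) were lower and 1, Peak1, was higher. At both ICM stages 39 were lower, and at neither 23. Of the 25 genes higher in morulae, 4 were higher in early ICMs (Rdh10, Tinagl1, Hand1 and Hspb8), 1 was lower there, 9 were higher in late ICMs, and 15 were higher at neither stage. Seen from the other side, the 57 genes were 6.64% of those lower in early ICMs, and the median morula change of all genes lower in early ICMs was -0.39, against 0.22 for those higher there and 0.01 for all genes.

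**Figure D4:**
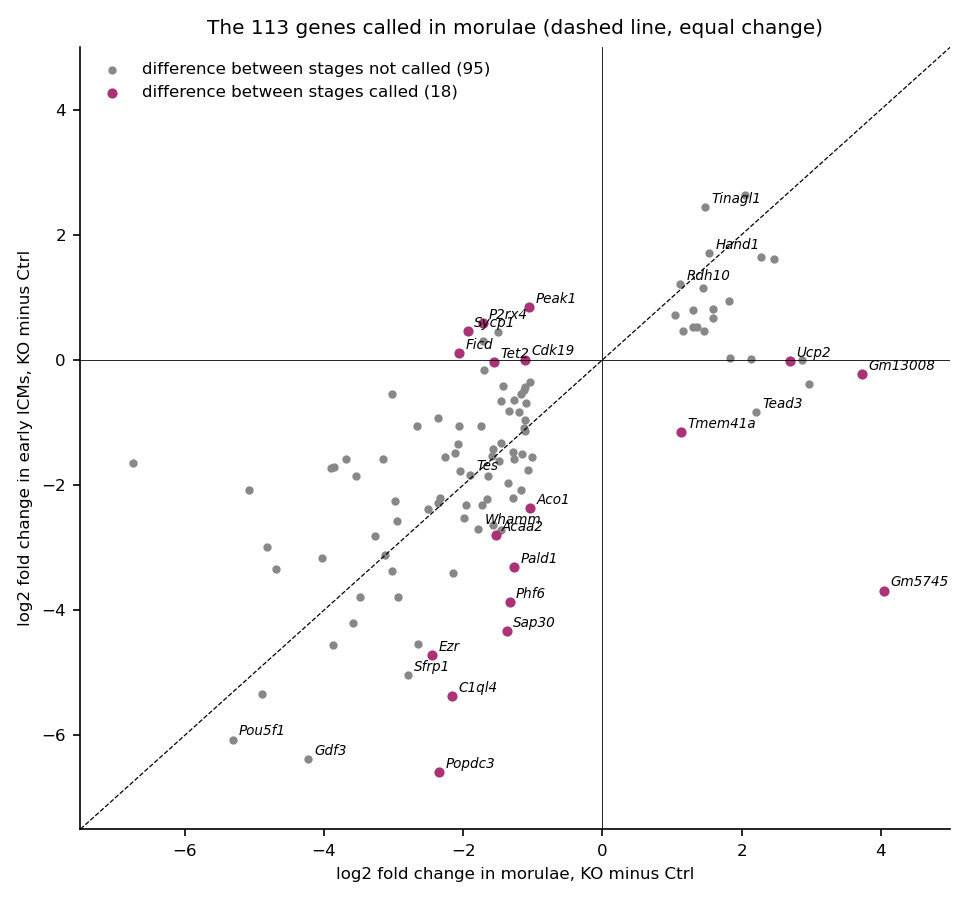
Log2 fold change of Oct4-KO minus Ctrl in early ICMs against that in morulae for the 113 genes called in morulae, 1 point per gene, coloured by whether the effect differed between the stages. Most lower genes lie at the lower left, while Tet2, Ficd, P2rx4, Sycp1, Cdk19 and Peak1 lie near or above 0 in early ICMs.

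The size of the effect differed between the stages for 18 of the 113 genes, in an interaction test in which 461 genes (3.28%) were called. For 8 of the 88 lower genes the loss was larger in early ICMs (Ezr, Popdc3, C1ql4, Sap30, Phf6, Pald1, Acaa2 and Aco1). The morula calls of Pald1 and Aco1 were each lost in 9 of the 16 fits that left 1 embryo out (adjusted p 0.0532 to 0.119 and 0.0644 to 0.135). Ezr rose to 229 to 378 CPM in Ctrl early ICMs and was at 0.964 to 22.7 CPM in KO early ICMs, a difference in effect of -2.28 ± 0.67 (adjusted p = 0.0294). Sap30 was at 23.4 to 74.0 CPM against 1.00 to 3.8 CPM there, and its effect differed by -2.96 ± 0.50 (adjusted p = 3.00e-05). In Acaa2 the groups were at 115 to 222 CPM and 6.00 to 45.4 CPM, with a difference of -1.27 ± 0.41 (adjusted p = 0.0499).

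The opposite pattern, a change that was smaller or reversed in early ICMs, was found for 6 lower genes, Tet2, Ficd, P2rx4, Sycp1, Cdk19 and Peak1. Tet2 had 203 to 390 CPM in Ctrl and 183 to 320 CPM in KO early ICMs (-0.04 ± 0.16), and the difference from the morula effect was 1.52 ± 0.23 (adjusted p = 3.03e-06). P2rx4, an ATP-gated channel, did not overlap in morulae (9.30 to 34.6 CPM in Ctrl, 1.01 to 8.43 CPM in KO) and was at 0.59 ± 0.24 in early ICMs (difference 2.31 ± 0.41, adjusted p = 7.70e-05). Ficd was rare in early ICMs of either genotype, at most 4.81 CPM, and its effect differed by 2.16 ± 0.65 (adjusted p = 0.0342). Sycp1 had medians of 24.0 CPM in Ctrl and 49.8 CPM in KO early ICMs and differed by 2.40 ± 0.68 (adjusted p = 0.0227). Cdk19, a kinase of the Mediator complex, was at 0.00 ± 0.20 in early ICMs (difference 1.11 ± 0.29, adjusted p = 0.0117), and Peak1, a pseudokinase, at 0.85 ± 0.29 (difference 1.90 ± 0.41, adjusted p = 0.00126). The morula changes of Cdk19 and Peak1, -1.11 and -1.05, lay near the 2-fold limit. Cdk19 was under it without KO replicate 6 (-0.99), and Peak1 was not called without any of Ctrl replicates 1, 4, 11 or 15 or KO replicates 1, 2, 5 or 12 (adjusted p 0.0630 to 0.118). Of the higher genes Tmem41a turned, from 1.13 ± 0.27 in morulae to -1.15 ± 0.35 in early ICMs (difference -2.28 ± 0.44, adjusted p = 2.51e-04), and Ucp2, Gm13008 and Gm5745 also had smaller or opposite effects.

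Morulae without Sox2 gave a separate comparison, with no embryo in common. In Sox2-KO against Ctrl morulae 1 gene (0.00712%) was called, and none of the 88 or 25 genes was. A direct test of the difference between the Oct4-KO and the Sox2-KO effect called 50 genes (0.356%), among them 36 of the 88 lower and 4 of the 25 higher genes, Tmem144, Tbc1d12, Lrig1 and Cav1. For Tet2 the Sox2-KO effect was 0.08 ± 0.16 and the difference -1.63 ± 0.24 (adjusted p = 1.97e-06). Whamm and Tes had Sox2-KO effects of 0.17 ± 0.18 and 0.06 ± 0.18, and differences of -1.95 ± 0.27 and -1.96 ± 0.29 (adjusted p = 6.37e-07 and 2.64e-06). For Hand1 and Tinagl1 the Sox2-KO effects were 0.22 and 0.05, but the differences, 1.31 and 1.42, did not pass. Sox2 RNA in the Oct4 line was at 11.2 to 44.1 CPM in Ctrl and 14.2 to 32.9 CPM in KO morulae. Pou5f1 was at 13.3 to 26.6 CPM in the same Ctrl embryos.

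Several of the lower genes were higher in early ICMs than in morulae of Ctrl embryos, a difference that mixes stage with culture and isolation. In Ctrl embryos of the Sox2 line, which take no part in the Oct4 comparison, 2419 genes (17.2%) rose and 2067 (14.7%) fell from morula to early ICM. Of the 88 genes lower in Oct4-KO morulae 29 (33.0%) rose and 11 (12.5%) fell, and of the 25 higher genes 3 rose and 10 fell. Among those that rose were Ezr (3.28), Acaa2 (2.86), Fzd5 (2.40), Gdf3 (2.22), Tes (1.66) and Sfrp1 (1.15), and among those that fell were Ficd (-2.70) and, of the higher genes, Hand1 (-1.60), Tinagl1 (-1.24) and Camk1 (-1.14). Tet2 (0.66), Whamm (0.81) and Sap30 (-0.42) were not called in this comparison.

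The Ctrl group itself lacked maternal Oct4, and the MWT morulae show how far it lay from embryos of intact mothers. Between MWT and Ctrl morulae 9 genes (0.0646%) were called, none of them among the 88 lower genes and 1, the pseudogene Gm5745, among the 25 higher. This comparison shares the Ctrl embryos with the one above, and KO against MWT shares the KO embryos, so the values stand side by side and are not independent. Against MWT, 298 genes (2.14%) were called in KO morulae, with 63 of the 88 and 12 of the 25 among them. Lower genes described above that were not called against MWT were Bambi, Sycp1, Laptm4b, Eif2ak4, Pald1, Cdk19 and Peak1. Sfrp1 ran from 11.1 to 95.8 CPM in MWT morulae, Tet2 from 86.5 to 267 CPM, Whamm from 68.9 to 145 CPM, and Tes from 12.2 to 182 CPM. In these ranges MWT replicates 3 and 5 were the lowest embryos for Sfrp1, Ezr, Tes and Tet2, and for Sfrp1, Ezr and Tes both lay within the KO range. For Tet2 both lay above it. Hand1 was at 148 to 421 CPM and Tinagl1 at 25.6 to 90.0 CPM in MWT morulae, so the highest MWT embryo overlapped the KO group for Hand1 and none did for Tinagl1. Against MWT morulae Hand1 was not called (1.08 ± 0.45, adjusted p = 0.172), while Tinagl1 (1.85 ± 0.35, adjusted p = 1.57e-04) and Tead3 (2.59 ± 0.50, adjusted p = 2.13e-04) were.

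KO and Ctrl embryos differed also in which paternal copy of chromosome 17 they received, since Pou5f1 lies at chr17:35506018-35510772 (mm10, + strand) and the targeted copy went to every KO embryo. Effects of Oct4 and of the chromosome inherited with the allele cannot be told apart for genes nearby. Within 5 Mb of Pou5f1 170 genes other than Pou5f1 were tested, of which 2 were lower and 1 higher (1.76%), and their median was -0.02. The same 3 genes were among 80 within 1 Mb, and the called share of genes on other chromosomes was 0.764%. The lower genes were H2-Q1 and H2-Bl, class I genes of the major histocompatibility complex, 186 and 574 kb away, named here after their values were seen. H2-Q1 had 79 UMIs in Ctrl and 2 in KO morulae, a ratio of 2.57% (0.305% to 9.58%), with 2.13 to 22.3 CPM against 0 to 1.78 CPM and no overlap. In MWT morulae H2-Q1 spanned 0 to 15 CPM. H2-Bl had 46 UMIs against 5 (11%, 3.42% to 27.6%), and its call was lost without Ctrl replicate 19 (adjusted p = 0.0719). Class I genes are near copies of each other, so reads may have been split among them. The higher gene was Gpsm3, 916 kb away, with 16 UMIs in Ctrl and 59 in KO morulae (1.83 ± 0.48, adjusted p = 0.0260), not called without Ctrl replicate 1, 4, 11, 15 or 18 or KO replicate 2 (adjusted p 0.0525 to 0.0731). Tead3 lies 7174 kb from Pou5f1, and Pi16 and Gm46603, which overlap each other on opposite strands, 6188 and 6186 kb. With them 2 genes were lower and 4 higher of 287 within 10 Mb (2.09%). The calls of Pi16 and Gm46603 were each lost in 13 of the 16 fits that left 1 embryo out (adjusted p 0.0510 to 0.105 and 0.0513 to 0.0976). Neither was called against MWT morulae (1.18, adjusted p = 0.132, and 0.50, adjusted p = 0.686). Ezr and Cdc42ep3 are on the same chromosome at 28768 and 43828 kb.

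**Figure D5:**
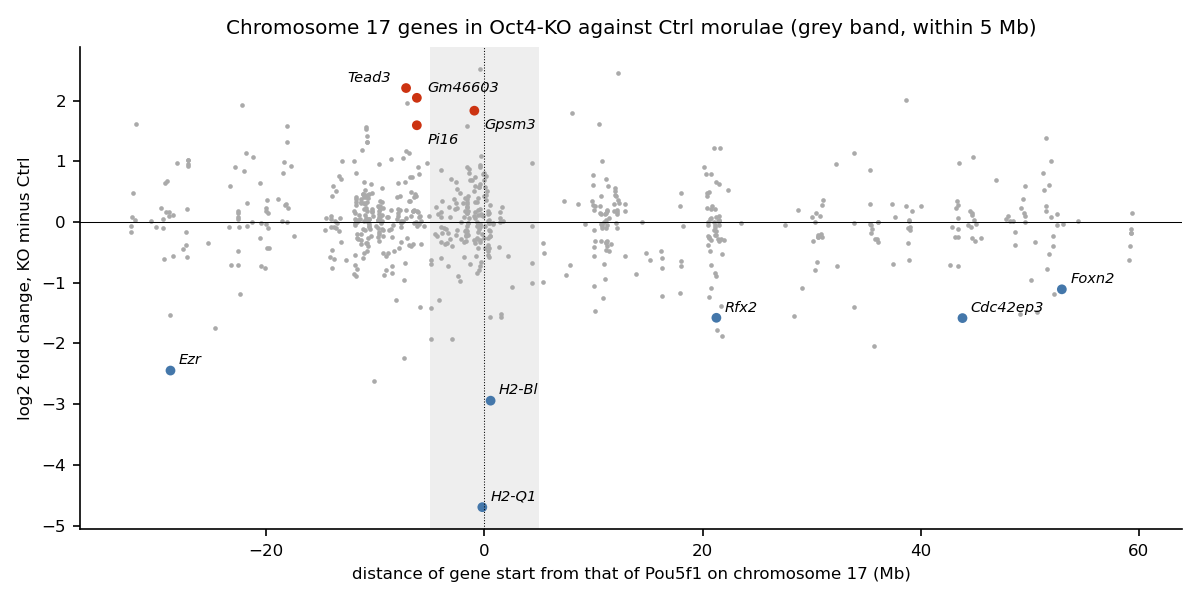
Log2 fold change of Oct4-KO minus Ctrl morulae against the distance of each tested chromosome 17 gene from Pou5f1 in megabases, 1 point per gene, with called genes coloured and named and the 5 Mb window shaded. H2-Q1 and H2-Bl are lower and Gpsm3 higher inside the window, and Tead3, Pi16 and Gm46603 lie 6 to 8 Mb away.

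A neighbouring group on chromosome 6 moved in both directions. Cav2 and Cav1, which encode the caveolins of plasma membrane pits, lie 216 and 241 kb from Tes and were higher where Tes was lower. Cav2 had 2.04 to 6.78 CPM (median 4.06) in Ctrl and 9.37 to 24.9 CPM (median 13.0) in KO morulae, with no overlap. Its change was 1.82 ± 0.48 (adjusted p = 0.0254), and it was not called without Ctrl replicate 11 or 18 or KO replicate 1 (adjusted p 0.0550 to 0.0709). Cav1 had 2 UMIs in Ctrl and 21 in KO morulae, a ratio of 1064% with an interval of 260% to 9358%. Both caveolin genes were chosen for description after their values were seen.

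Among the called processed pseudogenes, 3 differed widely between embryos of the same genotype. Gm11942 was at 1270 to 1660 CPM in 5 Ctrl morulae and at 18.1 to 38.0 CPM in the other 3, while KO morulae had 7.11 to 110 CPM and MWT morulae 8.81 to 27.1 CPM. It is called lower (-5.08, adjusted p = 0.0220), but against MWT embryos it was not, at 0.68. Gm14513 was at 259 to 335 CPM in 3 Ctrl morulae and at 238 to 252 CPM in 3 MWT morulae, and otherwise at 3.44 CPM or less in all 3 groups. Gm5745, called higher (4.04, adjusted p = 0.0235), was at 160 and 163 CPM in KO replicates 5 and 6 and at 2.32 CPM or less in the other KO embryos, and it was at 214 to 259 CPM in 3 MWT morulae. These 3 pseudogenes were chosen for description after their values were seen, as was Gm8520, whose Ctrl and KO groups did not overlap. Gm8520 was at 4.41 to 10.2 CPM in Ctrl and 0 to 0.937 CPM in KO morulae, 58 UMIs against 1, a ratio of 1.75% (0.0435% to 10.1%). MWT morulae reached into the KO range, at 0 to 6.56 CPM (median 1.14), and Sox2-line Ctrl morulae had a median of 0. Against MWT the change of Gm8520 was -3.51 ± 1.09 (adjusted p = 0.045). Gm11942 was not called without KO replicate 1 or 2 (adjusted p 0.0504 to 0.0519), Gm14513 without any of Ctrl replicates 1, 11 or 16 or KO replicates 1, 2, 4, 5, 6, 7, 8 or 12 (0.0514 to 0.0783), and Gm5745 without Ctrl replicate 19 or KO replicate 5 or 6 (0.0512 to 0.131). Of the 113 called genes 46 overlap another annotated gene, in 17 cases 1 on the other strand with at least 10 UMIs, and whether counting used the strand is not stated.

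Promoters were searched for the octamer that POU factors bind. RefSeq promoters (GRCm38.p6, from 250 bases before to 50 bases after each start listed for a gene) were matched to 56 of the 88 lower and 20 of the 25 higher genes. The motif ATGCAAAT, on either strand (ATTTGCAT on the other), was in 2 lower genes (3.57%), in no higher gene, and in 172 of 10094 tested genes with a promoter (1.70%). The lower genes with a match were Prrt3 and Il33, an interleukin-1 family cytokine. Their octamers are shown in capitals within 30 bases of promoter on each side, 5′ to 3′ on the strand of the gene. The Prrt3 window is chr6:113502100-113502167 (- strand), with the octamer beginning 206 bases before the start of the gene. The Il33 window is chr19:29945673-29945740 (+ strand), with the octamer 87 bases before the second of 2 starts that RefSeq lists. That start lies inside the gene, and the octamer is 20.6 kb downstream of the gene start in the deposited annotation.
Prrt3: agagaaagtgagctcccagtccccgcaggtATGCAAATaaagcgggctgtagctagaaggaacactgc
Il33: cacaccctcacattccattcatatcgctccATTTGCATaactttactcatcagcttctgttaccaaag
Il33 had 2.04 to 16.5 CPM in Ctrl and 0 to 4.44 CPM in KO morulae, 60 UMIs against 11, and a change of -2.34 ± 0.59 (adjusted p = 0.0173) that was not called without Ctrl replicate 15 (adjusted p = 0.0644). Prrt3 had 15 UMIs in Ctrl and 0 in KO morulae, with an upper limit of 28.2% for the ratio. Enhancers away from the gene start were not searched, and a match does not show binding.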

How the data were processed

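The authors sequenced the 3′ ends of transcripts of single embryos and, per the study's methods, extracted UMIs with UMI-tools, trimmed with Cutadapt, aligned to mm10 with TopHat2 (GENCODE vM23), assigned reads with featureCounts and corrected molecule numbers with TRUmiCount. Versions and the strand setting are not given in the sources used here. The deposited counts are whole UMIs for 29022 genes, without normalization. A second table deposited by the authors holds rlog values from DESeq2, on a log2 scale, used only as an alternative. Spike-ins were not used here.

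Genes were kept if, at some stage, a share of 0.5 or more of the embryos had a UMI, which left 14053 in the 96 Ctrl and KO embryos of 12 groups. A group-means model of TMM-scaled counts was fitted in edgeR 4.0.16 (quasi-likelihood F test, R 4.3.3), all contrasts coming from that fit, and MWT contrasts from a fit of all 16 groups (13923 genes). A call needs a change of 2-fold or more (1 on the log2 scale) beside a p under 0.05 after Benjamini-Hochberg adjustment. The SE is the absolute log2 fold change divided by the square root of F. Every adjusted p in the text is edgeR's unless another tool is named, and n is 8 per group (7 MWT). CPM use TMM-adjusted totals. Ratios of UMI sums carry exact 95% Poisson intervals, for counting error only. Embryos are labelled as separate, and no pair had near-equal counts.

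Members, gene lists and tests were chosen with earlier results of these data known. Genes named by rule are Pou5f1, called list members, and called genes whose higher group had a mean of 20 CPM or more, with all 8 KO embryos on 1 side of the Ctrl median (the 20 lowest and 12 highest, of which 7 existed, predicted genes passed over). An item that the rule takes is not reported here. A first-component covariate, windows of 1 and 10 Mb, ribosomal protein genes and the alternatives for ICM stages were added after seeing the data. Alternatives used limma 3.58.1 and DESeq2 1.42.0. The pipeline was tested on simulated data. Replicate numbers shared by Ctrl and KO morulae did not pair embryos.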

Additional observations from a re-analysis of the deposited data

Results flagged for a closer look

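In 68 groups of 8 embryos tested for a sample far from the rest, where chance marks about 1 in 20, 7 stood out. Pou5f1 was at 3.44 CPM in KO replicate 5 and at 0 in the other KO morulae. Sfrp1 was at 43.1 CPM in KO replicate 12, Sap30 at 16.1 CPM in KO replicate 8, and Hhex at 59.8 CPM in Ctrl replicate 4. Ctrl replicate 16 was high for Tead3 (20.2 CPM) and Camk1 (26.6 CPM), genes that were higher in KO morulae. The mitochondrial share of Ctrl replicate 15 was 6.33%.

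The Oct4-KO effect in morulae differed from the Sox2-KO effect, in a test of the difference itself, for these named genes (log2, Oct4 minus Sox2 effect): Pou5f1 -5.44, Gdf3 -4.22, Sfrp1 -2.98, Ezr -2.75, Csta1 -2.73, Fbxo3 -2.19, Ficd -2.12, Tes -1.96, Whamm -1.95, Plpp1 -1.82, Tet2 -1.63, Pcmtd1 -1.46 and Tmem144 1.90. For Tmem144 the fitted Sox2-KO effect was -0.75 (not called) and the Oct4-KO effect 1.15.

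Between early ICM and morula the Oct4-KO effect differed for Sap30 (-2.96), Ezr (-2.28), Acaa2 (-1.27), Tet2 (1.52), Ficd (2.16) and Sycp1 (2.40). Sap30, Ezr and Acaa2 were lowered more in early ICMs, and Tet2, Ficd and Sycp1 less or not at all.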

How the results depend on the processing

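The 113 calls became 132 in the 16 morulae alone, 108 with all 16 groups, 22 higher and 101 lower with DESeq2, 114 in all with RLE scaling, 118 with total UMIs, 112 without a filter and 149 with a Y-linked covariate. They became 56 with limma on rlog values, 68 at a mean of at least 10 UMIs, where fewer genes were tested, and 51 (8 higher, 43 lower) after thinning to 525755 UMIs per embryo, which kept 52.7% of UMIs. They became 188 with the first component as covariate, 298 against MWT and 206 without a fold minimum, and ran from 82 to 128 when 1 embryo was left out. Of the 113 genes 52 were called in all 16 of those fits, 92 of 96 testable by DESeq2, 41 of 103 after thinning and 45 with limma. Signs turned for 2 genes: Gm11942 was 0.68 against MWT, and Gm5745 -1.32 against MWT, -0.35 with the replicate block and -0.29 in the same embryos without it. In MWT against Ctrl morulae the 9 calls became 15 with DESeq2 and 15 without a filter. The causes of these shifts, apart from the fewer genes or UMIs named, were not tested.

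Replicate numbers 1, 4 and 7 were shared by Ctrl and KO morulae, with correlations of deviations of -0.06, -0.03 and 0.13, and no embryo was closest to its own number. The replicate block over embryos sharing a number gave 277 calls (127 higher, 150 lower), and the same embryos without the block 102 (42 and 60).

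Depth limits the rare genes: 1 CPM is about 1 UMI per embryo. KO and Ctrl embryos differ in the paternal chromosome 17, and the embryos are 8 per group of 1 background.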

Other observations

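Ribosomal protein genes, looked at after their values were seen, leaned to higher values in Oct4-KO morulae. Of 83 tested, 64 (77.1%) had a positive log2 fold change, against 51.6% of all genes. At an adjusted p under 0.05, 6 were higher, each by less than 2-fold, where 0.562% of all genes were higher, and none was lower. The median was 0.10 against 0.01 for all genes. Their summed level, as a share of TMM-adjusted totals, was 16.2% to 18.1% (median 17.4%) in Ctrl and 16.7% to 19.6% (median 18.7%) in KO morulae. On that scale 6 of 8 KO embryos lay above the highest Ctrl embryo. The share of unadjusted UMI totals was not computed. With total UMIs as the scale the median was 0.04 against -0.04 for all genes. In Sox2-KO morulae it was -0.01, while ICMs without Oct4 had 0.12 (early) and 0.05 (late). The change of these genes from morula to early ICM in Sox2-line Ctrl embryos had a median of 0.24.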
